A study of Mus musculus with 12 samples.

Results

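The 9 genes described here take up, carry, make, break down or sense vitamin A. They are Stra6, Crabp2, Rara, Rarg, Rxra, Rdh10, Aldh1a2, Cyp26b1 and Dhrs3, and all 9 were measured among 23185 genes tested. They were chosen by name with earlier results of these arrays in view. Among those results was the difference of Stra6 between activated Cre+ and Cre- cells. Values of the 9 genes in that comparison, and in those that rest on it, are therefore given as a description without a p-value, and nothing is read from counts of the 9 genes there. Each activation comparison shares its activated arrays with that comparison. Its p-values for the 9 genes, not given for Stra6 in Cre+ cells, are therefore not independent of such a choice. What chose the other 8 genes is not stated in the sources used here. The p-values of the 9 genes at rest may therefore also depend on that choice.

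CD4+ T cells of mouse spleen were profiled on 12 arrays, 3 in each of 4 groups. Activated Cre+ cells had the genotype Lck-Cre+;Ikzf-/- and were stimulated for 24 hours with plate-bound antibody against CD3 and soluble antibody against CD28. Activated Cre- cells had the genotype Lck-Cre-;Ikzf+/+ and the same stimulation. Resting Cre+ and resting Cre- cells carried the same genotypes and were labelled baseline, at 0 hours. Lck drives Cre in the T cell lineage, where Ikaros (gene Ikzf1), a DNA-binding factor of lymphocytes, was to be deleted. No group carried Cre with intact Ikaros, and no group was cultured without stimulation. Cre and Ikaros loss, and culture and stimulation, therefore cannot be told apart. The labels give neither strain nor age, and none says that arrays of 1 group were separate animals, so p-values measure the spread between these arrays. Values are log2 expression with 1 value per gene, and differences are log2 differences with the moderated standard error (SE) of a limma fit to all arrays. A difference "passed" where its two-sided p, adjusted by Benjamini-Hochberg across the whole table, was under 0.05. Only differences that passed are called rises or falls.

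Retinol, the alcohol form of vitamin A, travels in blood on a binding protein and enters cells through the membrane receptor STRA6. Inside the cell it is oxidised to retinaldehyde and then to retinoic acid. Retinoic acid is carried to nuclear retinoic acid receptors, which bind DNA in pairs with retinoid X receptors. In T cells, retinoic acid made by dendritic cells of the gut is known to raise gut-homing receptors and to favour regulatory T cells.

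The T cell label held, with Cd4 at 10.82 to 11.21 and 10.48 to 10.98 in activated Cre+ and Cre- cells and at 11.48 to 11.60 and 11.12 to 11.32 in resting Cre+ and Cre- cells. Cd8a and Cd8b1, markers of CD8 T cells, had means of 6.53 to 7.13 and 5.97 to 7.15 in activated Cre+ and Cre- cells. At rest these means were 6.73 to 7.33 and 6.57 to 6.98, so Cd4 does not show that CD8 T cells were absent. Markers of B cells were also present. The mean of 13 of them lay between 5.85 and 7.20 in activated Cre+ cells, between 5.25 and 6.53 in activated Cre- cells, between 8.11 and 8.16 in resting Cre+ cells and between 8.26 and 8.51 in resting Cre- cells. Means of 13 myeloid markers were 4.49 to 4.66 and 4.23 to 4.42 in activated Cre+ and Cre- cells, against 5.60 to 6.50 and 5.75 to 6.14 at rest. For 10 dendritic cell markers they were 4.17 to 4.52 and 4.10 to 4.15, against 5.45 to 6.25 and 5.65 to 5.99. In such mixtures fewer cells of a type and less RNA per cell cannot be told apart. The activated arrays numbered 3 stood apart in both genotypes. Their means of 19 cell cycle genes were 8.48 (Cre+) and 8.83 (Cre-). Arrays 1 and 2 had 7.07 and 6.42 in activated Cre+ cells and 6.47 and 6.46 in activated Cre- cells. On the resting arrays these means were 6.28 to 6.49 (Cre+) and 6.30 to 6.47 (Cre-). Ikzf1 averaged 9.98 ± 0.13 (SD, n = 3) and 10.11 ± 0.10 in activated Cre+ and Cre- cells, and 10.36 ± 0.27 and 10.53 ± 0.01 in resting Cre+ and Cre- cells. Which exons were deleted is not stated in the labels, so these values do not check the genotype labels.

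Stra6, the retinol receptor, was high in one group. It read 9.48, 7.38 and 9.63 in activated Cre+ cells, against 4.01, 4.06 and 5.60 in activated Cre- cells. All 3 activated Cre+ arrays lay above every other array of the series. In resting cells it read 4.84, 5.28 and 4.86 with Cre and 4.20, 3.98 and 4.09 without. The resting Cre+ arrays were thus also above all resting Cre- arrays, by much less. The order of the group means was 8.83 ± 1.26 (activated Cre+), 4.99 ± 0.25 (resting Cre+), 4.55 ± 0.90 (activated Cre-) and 4.09 ± 0.11 (resting Cre-), and the lower 3 lay within 0.90 of each other. The array medians lay between 4.04 and 4.17, so the resting Cre- readings were near the middle of all probe sets.

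The Stra6 difference between activated Cre+ and Cre- cells was 4.28 (SE 0.54), and it was the second highest of 23185 genes. With each array left out in turn it was lowest, at 3.88, without activated Cre+ array 3, and array weights gave 5.19. At rest the difference between Cre+ and Cre- cells was 0.90 (SE 0.54, 95% interval -0.28 to 2.08, limma adjusted p = 0.879). That difference passed in a fit of the 6 resting arrays alone (limma adjusted p = 0.0225), so the call depends on the arrays in the fit. The fit to all arrays shares 1 spread per gene over the groups. For Stra6 the SDs were 1.26 and 0.90 in activated Cre+ and Cre- cells, against 0.25 and 0.11 at rest. The shared SE of 0.54 is thus wide for the resting difference and narrow for the activated one. With activation, Stra6 differed by 3.84 (SE 0.54) in Cre+ cells. In Cre- cells it differed by 0.46 (SE 0.54, 95% interval -0.72 to 1.65, limma adjusted p = 0.653), and this value rested on array 3: without it the difference was -0.06.

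Stra6 was lowest on array 2 within the activated Cre+ group and highest on array 3 within the activated Cre- group. B cell markers varied over the same arrays, with means of 6.63, 5.85 and 7.20 on Cre+ arrays 1, 2 and 3 and of 5.25, 5.65 and 6.53 on the Cre- arrays. By group mean, 13 of 13 of these markers read higher in activated Cre+ than Cre- cells, with a median difference of 0.70, although 0 passed. On the 6 resting arrays, where the B cell mean was 8.11 or more, Stra6 read 5.28 or less. Activated B cells were not measured apart, and the part of B cells in the Stra6 values was not tested. Without both activated arrays numbered 3 the Stra6 difference between activated Cre+ and Cre- cells was 4.40.

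Of 4 Stra6 start sites in the RefSeq promoter table, 1 had a match to TGGGAA, a core sequence bound by Ikaros. Its window is shown because Stra6 had the largest genotype difference of the 9 genes. It covers 250 bases before to 50 bases after the start, at chr9:58134415-58134714 of GRCm38.p6, plus strand, and the match to the reverse complement, in capitals, begins at position -239 from the start.

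Stra6 start 4: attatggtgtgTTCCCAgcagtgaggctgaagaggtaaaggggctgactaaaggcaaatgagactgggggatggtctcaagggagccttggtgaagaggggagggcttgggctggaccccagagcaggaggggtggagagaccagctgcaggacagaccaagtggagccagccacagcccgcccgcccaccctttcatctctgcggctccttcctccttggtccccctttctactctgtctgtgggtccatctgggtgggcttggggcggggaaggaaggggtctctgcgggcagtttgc

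TGGGAA, searched on both strands, was in 25.6% of 32851 windows of this length, and in 6 of the 17 windows of the 7 members that the table holds. Windows of a gene can overlap. Rara starts 1 and 2 share a match, as do Dhrs3 starts 2 and 3, so the 6 windows do not all hold separate sites. A match is a description of the letters and not a binding site.

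Crabp2, which carries retinoic acid to its receptors in the nucleus, rose on activation in both genotypes. It read 8.92, 8.07 and 9.09 in activated Cre+ cells and 6.30, 6.33 and 7.81 in activated Cre- cells. It read 4.03, 4.10 and 3.26 in resting Cre+ cells and 3.82, 3.65 and 4.23 in resting Cre- cells. Every activated array was above every resting one, and every activated Cre+ array was above every activated Cre- one. In Cre+ cells the rise was 4.89 (SE 0.40, limma adjusted p = 1.11e-05), a 29.7-fold difference. In Cre- cells it was 2.91 (SE 0.40, limma adjusted p = 5.01e-04), or 7.53-fold. The resting means of 3.80 ± 0.47 and 3.90 ± 0.30 lay below the array medians, so these folds compare readings. Among all 23185 genes it had the seventh highest log2 difference on activation of Cre+ cells.

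Activated Cre+ cells averaged 8.69 ± 0.54 and activated Cre- cells 6.81 ± 0.86 (SD, n = 3 each) for Crabp2, a difference of 1.88 (SE 0.40). It was 2.38 without Cre- array 3 and 2.18 without both activated arrays numbered 3, and ranged from 1.62 to 2.38 with each array left out. Within the Cre- group, array 3 was the highest, as it was for Stra6. At rest the genotype difference of Crabp2 was -0.10 (SE 0.40, 95% interval -0.98 to 0.78, limma adjusted p = 1).

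**Figure D1:**
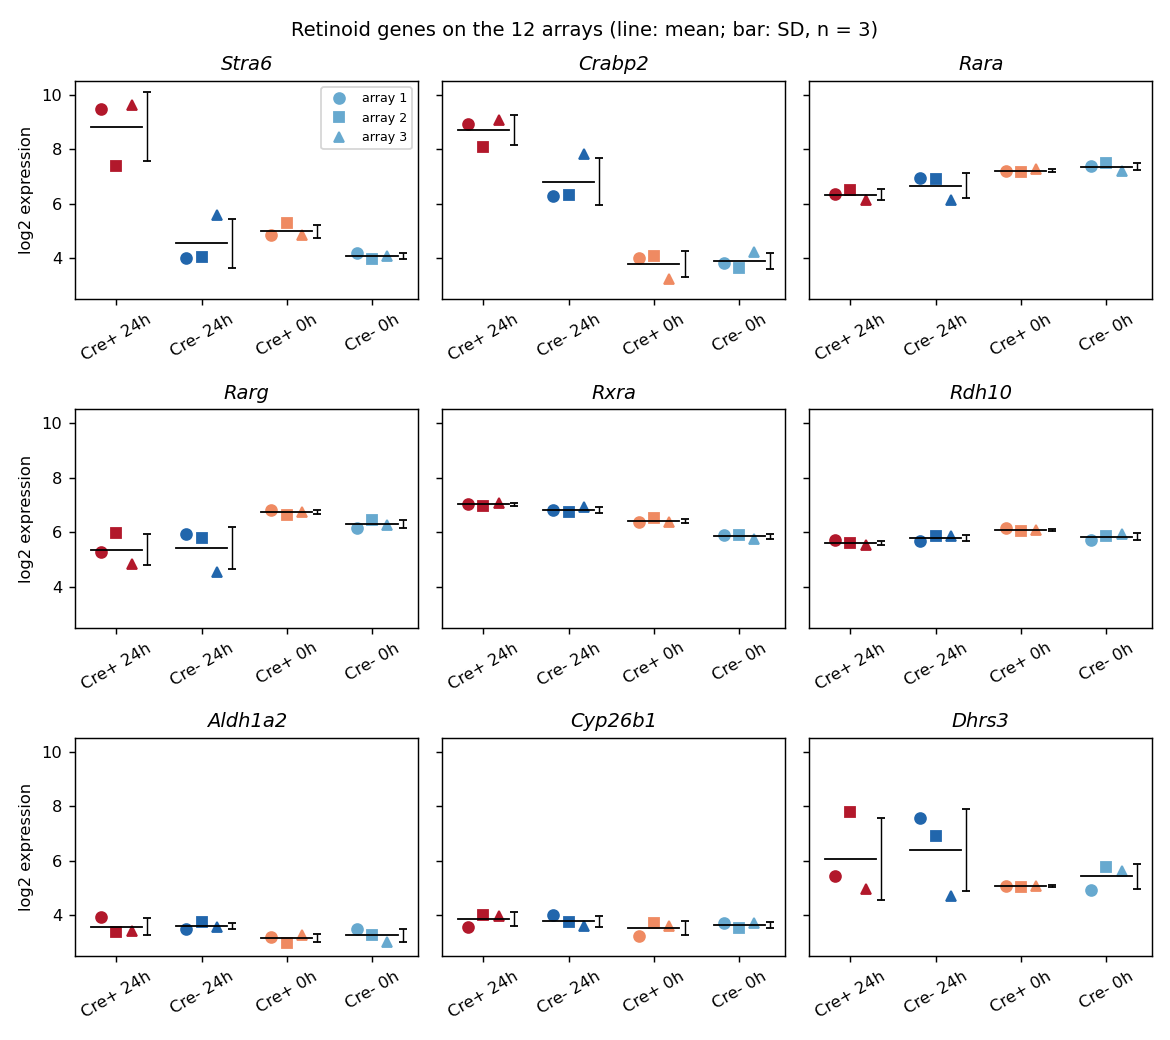
Log2 expression (y axis) of the 9 retinoid genes on the 12 arrays, by group (x axis), with points for arrays 1, 2 and 3, a line at the mean and a bar for the SD (n = 3). Stra6 reads 7.38 to 9.63 in activated Cre+ cells and 5.60 or less on all other arrays, while Aldh1a2 and Cyp26b1 stay at 4.03 or less throughout.

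Among the receptors Rxra rose and Rara fell on activation in both genotypes. Rxra, the partner of many nuclear receptors, was higher after activation. It read 7.02, 6.96 and 7.09 in activated Cre+ cells and 6.81, 6.73 and 6.93 in activated Cre- cells. At rest it read 6.38, 6.51 and 6.36 in Cre+ and 5.91, 5.90 and 5.74 in Cre- cells. The 4 groups did not overlap, in the order activated Cre+, activated Cre-, resting Cre+ and resting Cre-. The rise was 0.61 (SE 0.10, limma adjusted p = 0.0012) in Cre+ cells and 0.97 (SE 0.10, limma adjusted p = 5.61e-05) in Cre- cells.

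Rxra was also the only one of the 9 genes to pass between resting Cre+ and Cre- cells, higher by 0.57 (SE 0.10, limma adjusted p = 0.0272), or 1.48-fold. The background was 0.552% of all genes passing, and 0.492% passing upward. The size of the Rxra difference moved little, from 0.51 to 0.59 with each array left out. The call did not hold: leaving out any 1 of the 6 resting arrays gave an adjusted p of 0.0906 to 0.14, and sex as a covariate gave 0.0688. B cell marker means did not overlap between these groups (8.11 to 8.16 in resting Cre+ and 8.26 to 8.51 in resting Cre- cells), and 13 of 13 B cell markers had a difference below 0, with a median of -0.18, although 0 passed. Myeloid marker means overlapped (5.60 to 6.50 in Cre+ and 5.75 to 6.14 in Cre-). The part of these cells in the Rxra result was not tested. After activation, Rxra differed by 0.20 between Cre+ and Cre- cells (SE 0.10, 95% interval -0.01 to 0.42).

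Rara and Rarg, 2 of the 3 retinoic acid receptors, read lower after activation. Rara was 6.35, 6.52 and 6.13 in activated Cre+ cells, against 7.22, 7.17 and 7.27 in resting Cre+ cells. It was 6.94, 6.92 and 6.14 in activated Cre- cells, against 7.39, 7.48 and 7.22 in resting Cre- cells. The activated and resting arrays did not overlap in either genotype. Rara fell by 0.89 in Cre+ cells (SE 0.19, limma adjusted p = 0.00701). It fell by 0.70 in Cre- cells (SE 0.19, limma adjusted p = 0.0255). The Cre- call was lost without resting array 1 (0.0769), without resting array 2 (0.0859) and in the fit of the Cre- arrays alone (0.0858), and the Cre- difference was -0.44 without activated array 3.

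Rarg was 5.29, 5.96 and 4.82 in activated Cre+ cells, against 6.81, 6.65 and 6.76 in resting Cre+ cells. It was 5.95, 5.79 and 4.54 in activated Cre- cells, against 6.16, 6.46 and 6.27 in resting Cre- cells. In both genotypes the activated arrays lay below the resting ones, with array 3 lowest. Rarg fell by 1.38 in Cre+ cells (SE 0.34, limma adjusted p = 0.0136). That call was lost without activated Cre+ array 3, where the difference was -1.12 (limma adjusted p = 0.06). The Cre- difference of -0.87 did not pass (SE 0.34, limma adjusted p = 0.106), was -0.43 without activated Cre- array 3, and passed at -1.13 without activated Cre- array 1 (0.048).

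Between genotypes neither receptor passed at rest. Rarg differed there by 0.45 (SE 0.34, 95% interval -0.30 to 1.19), with every Cre+ array above every Cre- array. Its SDs were 0.08 and 0.15 in resting Cre+ and Cre- cells, against 0.57 and 0.77 after activation, so the shared SE is wide at rest. Rara differed by -0.15 (SE 0.19, 95% interval -0.57 to 0.27). After activation the differences between Cre+ and Cre- cells were -0.33 (SE 0.19) for Rara and -0.07 (SE 0.34) for Rarg. Without activated Cre- array 3 they were -0.60 and -0.51, and leaving out activated Cre- array 1 or 2 or activated Cre+ array 3 turned the Rarg value positive, to between 0.11 and 0.20. The third retinoic acid receptor gene, Rarb, averaged 3.11 ± 0.21 and 3.18 ± 0.17 in activated Cre+ and Cre- cells and 3.46 ± 0.30 and 3.32 ± 0.17 at rest. Of the other retinoid X receptors, Rxrb averaged 6.88 ± 0.35 and 6.83 ± 0.17 in activated Cre+ and Cre- cells and 7.22 ± 0.10 and 7.01 ± 0.09 at rest, while Rxrg read 3.43 or less on all arrays. None of these 3 passed in any comparison.

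One promoter window of each of the 3 receptors is shown, chosen after the matches were seen. Capitals mark AGGTCA, the single element that retinoid receptors recognise, or its reverse complement, and TGGGAA or its reverse complement. The Rara window lies at chr11:98937446-98937745 of GRCm38.p6, plus strand, the Rarg window at chr15:102257473-102257772 of GRCm38.p6, minus strand and the Rxra window at chr2:27709042-27709341 of GRCm38.p6, plus strand.
Rara start 1: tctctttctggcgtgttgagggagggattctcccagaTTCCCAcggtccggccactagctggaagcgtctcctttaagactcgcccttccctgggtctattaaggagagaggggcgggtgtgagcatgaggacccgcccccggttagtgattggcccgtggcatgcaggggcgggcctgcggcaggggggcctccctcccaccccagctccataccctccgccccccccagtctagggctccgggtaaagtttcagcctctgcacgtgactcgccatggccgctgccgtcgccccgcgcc
Rarg start 1: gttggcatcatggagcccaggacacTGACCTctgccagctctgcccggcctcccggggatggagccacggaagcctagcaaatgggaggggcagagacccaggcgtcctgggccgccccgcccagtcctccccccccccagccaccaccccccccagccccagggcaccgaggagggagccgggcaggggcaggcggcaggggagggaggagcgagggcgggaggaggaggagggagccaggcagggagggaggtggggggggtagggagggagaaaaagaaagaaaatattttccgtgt
Rxra start 2: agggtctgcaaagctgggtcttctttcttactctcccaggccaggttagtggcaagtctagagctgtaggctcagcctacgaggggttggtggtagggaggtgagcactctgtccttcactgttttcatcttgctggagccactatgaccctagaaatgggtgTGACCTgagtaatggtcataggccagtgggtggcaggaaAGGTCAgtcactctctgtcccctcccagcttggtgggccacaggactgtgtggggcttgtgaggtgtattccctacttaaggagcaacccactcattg

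The Rara window held 1 match to the Ikaros core, and the Rarg window held 1 receptor element. The Rxra window held 2 receptor elements, on opposite strands, at positions -87 and -48 from the start. Windows not shown also had matches: Rara start 4 a receptor element at 34, and Rxra start 1 an Ikaros core at -248. The window of Rara start 2 overlaps that of start 1 and holds the same Ikaros core, at -235 from start 2. Dhrs3 start 2 had an Ikaros core at -87, which the overlapping window of start 3 holds at -147, beside another at 14. AGGTCA on either strand was in 16.3% of the 32851 windows and in 3 of the 17 windows of the members. Pairs of these elements in the same orientation, searched as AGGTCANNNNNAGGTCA, AGGTCANNAGGTCA and AGGTCANAGGTCA on both strands, were in 0.00913%, 0.00913% and 0.0396% of all windows and in none of the 17. Overlaps between the single and the paired motifs were allowed.

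Of the 4 enzymes only Rdh10 passed in any comparison tested, on activation of Cre+ cells. Rdh10, which oxidises retinol to retinaldehyde, read 5.70, 5.61 and 5.53 in activated Cre+ cells, against 6.14, 6.05 and 6.08 in resting Cre+ cells. These arrays did not overlap, and Rdh10 fell by 0.47 in Cre+ cells (SE 0.10, limma adjusted p = 0.00658). It read 5.67, 5.85 and 5.87 in activated Cre- cells, against 5.71, 5.87 and 5.94 in resting Cre- cells, a difference of -0.04 (SE 0.10, 95% interval -0.26 to 0.18). At rest the Cre+ arrays of Rdh10 lay above the Cre- arrays, by 0.25 (SE 0.10, limma adjusted p = 0.625). After activation the genotype difference was -0.18 (SE 0.10).

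Aldh1a2, which makes retinoic acid from retinaldehyde, and Cyp26b1, which breaks retinoic acid down, read below the array median on all 12 arrays. Aldh1a2 ranged from 3.40 to 3.94 and 3.50 to 3.74 in activated Cre+ and Cre- cells and from 3.00 to 3.27 and 3.01 to 3.50 in resting Cre+ and Cre- cells. Cyp26b1 ranged from 3.57 to 4.03 and 3.61 to 4.01 in activated Cre+ and Cre- cells and from 3.23 to 3.73 and 3.53 to 3.73 at rest. Neither passed in the comparisons tested, and the widest of their differences was 0.42 for Aldh1a2 on activation of Cre+ cells (SE 0.17, limma adjusted p = 0.102). Whether these readings lie above background was not tested.

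Dhrs3, which reduces retinaldehyde back to retinol and is known to be induced by retinoic acid, split the activated arrays. It read 5.45, 7.79 and 4.96 in activated Cre+ cells and 7.55, 6.90 and 4.69 in activated Cre- cells. It read 5.09, 5.02 and 5.08 in resting Cre+ cells and 4.91, 5.77 and 5.62 in resting Cre- cells. Activated Cre+ array 2 and activated Cre- arrays 1 and 2 were above all resting arrays, and both arrays numbered 3 were below most of them. The differences on activation were 1.00 (SE 0.74, limma adjusted p = 0.415) in Cre+ cells and 0.95 (SE 0.74, limma adjusted p = 0.467) in Cre- cells, and neither passed. Without both activated arrays numbered 3 they were 1.56 (limma adjusted p = 0.0576) and 1.79 (limma adjusted p = 0.0382). Without activated Cre+ array 2 the Cre+ difference was 0.14, and without activated Cre- array 1 the Cre- difference was 0.36.

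The 3 activated arrays with high Dhrs3 were those with the lowest cell cycle means, 6.42 to 6.47. On the other 3, with cell cycle means of 7.07, 8.48 and 8.83, Dhrs3 read 5.45, 4.96 and 4.69. Rarg followed the same split, with 5.79 to 5.96 on the first 3 arrays and 5.29, 4.82 and 4.54 on the others. So did Rara, with 6.52 to 6.94 on the first 3 and 6.35, 6.13 and 6.14 on the others. Within each genotype Stra6 and Crabp2 went the other way. On Cre+ arrays 2, 1 and 3, in order of cell cycle mean, Stra6 read 7.38, 9.48 and 9.63 and Crabp2 read 8.07, 8.92 and 9.09, and in Cre- cells both were highest on array 3. Between genotypes, Cre- array 3 read 5.60 and 7.81 for these genes and Cre+ array 2 read 7.38 and 8.07. The part of cell cycle state in these values was not tested.

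**Figure D2:**
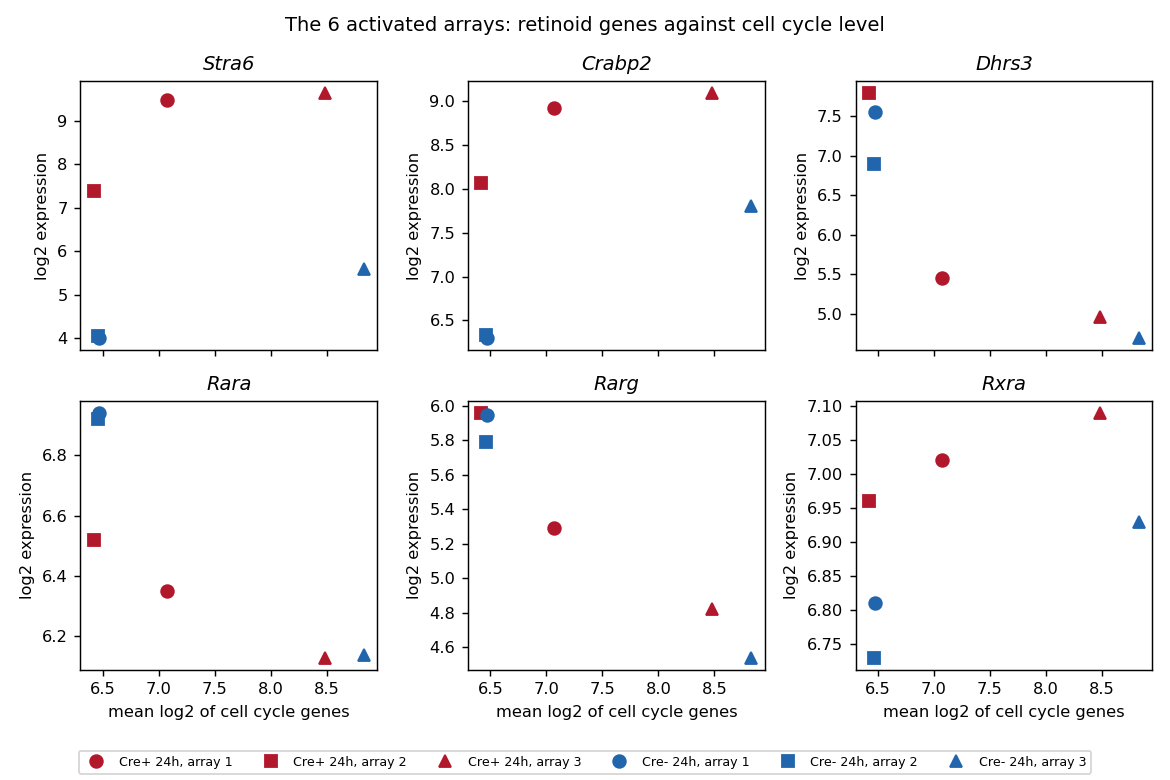
Log2 expression of 6 retinoid genes (y axes, scaled per gene) against the mean log2 value of 19 cell cycle genes (x axis) on the 6 activated arrays, with colours for genotype and shapes for array number. Dhrs3, Rara and Rarg are highest on the 3 arrays with cell cycle means of 6.42 to 6.47, whereas Stra6 and Crabp2 are higher on all Cre+ than on all Cre- arrays.

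In counts, 1 of the 9 genes passed between activated Cre+ and Cre- cells, Stra6, against 0.729% of all genes. Since this comparison may have chosen the members, nothing is read from that count. In a fit of the 6 activated arrays alone 0 of the 9 members passed, and 9 of all 23185 genes. Array weights, which set Cre- array 3 to 0.24 and Cre+ array 1 to 3.79, gave 4 members, where 2416 of all genes passed. On activation of Cre+ cells 6 of 9 passed, 3 higher and 3 lower, against 20.7% of all genes, 10.1% higher and 10.6% lower. Stra6 is 1 of the 3 higher, and the activated arrays are those of the comparison that may have chosen the members. On activation of Cre- cells 3 of 9 passed, 2 higher and 1 lower, against 18.5% of all genes, 9.39% higher and 9.10% lower. The activated Cre- arrays also belong to that comparison, so no enrichment is read from either activation count. The median difference of the 9 genes on activation was 0.42 in Cre+ and 0.34 in Cre- cells, against -0.02 and 0.00 over all genes tested. Each of these medians is the value of Aldh1a2, which passed in neither genotype, so no shift of the 9 genes is read from them.

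Groups did not overlap for 3 of 9 genes between activated Cre+ and Cre- cells, where 10.8% of all genes did not, and nothing is read from this count either. Between resting Cre+ and Cre- cells they did not overlap for 4 of 9, against 16.2% of all genes. On activation they did not overlap for 7 of 9 in Cre+ cells, against 36.7%, and for 5 of 9 in Cre- cells, against 35.1%. The members were chosen with results of these arrays in view, and Stra6 is among the 4 and the 7. No enrichment is therefore read from these counts.

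The difference between the activation responses of Cre+ and Cre- cells shares the activated arrays with the comparison that may have chosen the members. It was 3.38 (SE 0.76) for Stra6 and 1.98 (SE 0.57) for Crabp2. It was -0.36 (SE 0.14) for Rxra, -0.43 (SE 0.14) for Rdh10, -0.51 (SE 0.48) for Rarg and -0.19 (SE 0.27) for Rara. With limma 0 of 9 passed, where 0.00863% of all genes passed. Under an unadjusted limma p of 0.05 were 4 of 9, and 4.70% of all genes. With array weights 2 of the members passed, and 143 of all genes. Without activated Cre+ array 2 there was 1, and 25 of all genes. Nothing is read from these counts, since the same arrays may have chosen the members. Calls present on activation in one genotype and absent in the other are thus not shown to differ between genotypes.

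**Figure D3:**
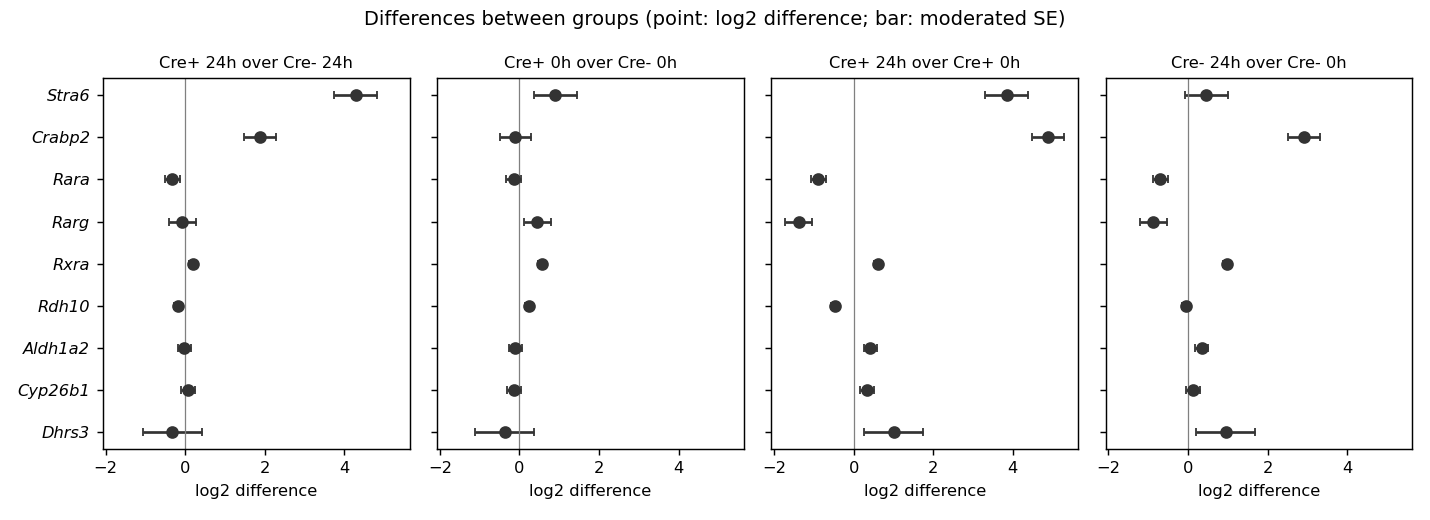
Log2 differences (x axes, points) with their moderated SE (bars) for the 9 genes (rows) in the 2 genotype comparisons and the 2 activation comparisons. Stra6 differs by 4.28 between activated Cre+ and Cre- cells and by 0.90 between resting ones, and Crabp2 differs by 4.89 on activation of Cre+ and 2.91 on activation of Cre- cells.

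A further 80 genes of retinoid transport, metabolism, receptors with their partners, receptor coregulators and known retinoic acid responses were examined, and 73 of them were measured. Between activated Cre+ and Cre- cells 0 of 73 passed with limma, with 5 at an unadjusted p under 0.05, where 7.51% of all genes were. Between resting Cre+ and Cre- cells the counts were also 0 and 5, and the share of all genes was 6.93%. The median genotype differences were 0.00 after activation and -0.01 at rest. Calls appeared under some alternatives. Nr4a2 passed at 1.36 (limma adjusted p = 0.0364) and Itgb7 at -1.04 (0.0487) between activated groups without both arrays numbered 3. Array weights gave 8 calls between these groups, where 2416 of all 23185 genes passed. Without activated Cre- array 3, Nr4a2 passed at 1.68 (0.0278) and Rdh12 at -0.70 (0.02), and without activated Cre+ array 2, Tgm2 passed at 1.14 (0.0489). Nr4a1 passed between resting groups at 0.77 (0.0215) without both activated arrays numbered 3. The genes in these alternatives were picked after their values were seen.

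On activation 18 of these 73 genes passed in Cre+ cells, 6 higher and 12 lower, and 17 in Cre- cells, 7 higher and 10 lower. These were 24.7% and 23.3% of the 73, near the 20.7% and 18.5% of all genes that passed. In both genotypes 14 passed, all 14 in the same direction. In a fit of the Cre- arrays alone 9 passed in Cre- cells, and 3201 of all genes. Without resting Cre- array 1 or 3 there were 10, and 2877 or 2998 of all genes. Array weights gave 31 in Cre+ cells, where 8292 of all 23185 genes passed.

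Among 11 uptake and binding genes, 1 rose and 2 fell in both genotypes. These were 27.3% of the list in each, against 20.7% and 18.5% of all genes in Cre+ and Cre- cells. Fabp5, a fatty acid binding protein that also carries retinoic acid, rose by 1.24 in Cre+ cells (SE 0.26, limma adjusted p = 0.00604) and by 1.68 in Cre- cells (SE 0.26, 0.00109). Cd36, a fatty acid transporter gene, fell by 1.20 and 1.34 in Cre+ and Cre- cells. Stra6l, a relative of Stra6, fell by 0.64 and 1.04, and its Cre+ call was lost in 9 alternatives. Crabp1, the closest relative of Crabp2, averaged 3.34 ± 0.07 and 3.31 ± 0.01 in activated Cre+ and Cre- cells and 3.41 ± 0.17 and 3.63 ± 0.13 at rest, and did not pass.

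Of 28 enzymes, 2 rose and 3 fell in Cre+ cells and 4 rose and 2 fell in Cre- cells. These 17.9% and 21.4% of the list were near the 20.7% and 18.5% of all genes. Adh1, an alcohol dehydrogenase that can oxidise retinol, fell by 1.71 in Cre+ cells (SE 0.29, limma adjusted p = 0.00184) and by 2.03 in Cre- cells (SE 0.29, 7.02e-04). The retinol dehydrogenase gene Rdh13 rose in both genotypes, by 0.57 in Cre+ cells and by 0.41 in Cre- cells. Rdh12 passed in Cre+ cells only, with a fall of 0.55 (SE 0.13, limma adjusted p = 0.011). Adh4, at 3.31 or less on all arrays, passed in Cre- cells only, with a rise of 0.67 (SE 0.17, limma adjusted p = 0.0155). In Cre- cells the Adh4 call was lost in 3 alternatives and the Rdh13 call in 6. Rdh5 fell by 0.98 and 0.82 in Cre+ and Cre- cells, and its Cre- call was lost in 4 alternatives. Aldh1a1, a relative of Aldh1a2, averaged 4.14 ± 0.08 and 4.22 ± 0.25 in activated Cre+ and Cre- cells and 3.96 ± 0.14 and 4.27 ± 0.13 at rest, and did not pass. Cyp26a1, another enzyme of retinoic acid breakdown and a sensitive target of retinoic acid in many cells, read 2.28 to 2.70 over all arrays, below every array median, and did not pass.

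Of 12 receptor and partner genes, 3 rose and 1 fell in Cre+ cells, and 2 rose and 1 fell in Cre- cells. These were 33.3% and 25.0% of the list, against 20.7% and 18.5% of all genes. Nr4a1 and Nr4a2 are early response genes of T cell receptor signals, and their products can pair with RXR. They rose by 1.50 and 3.10 in Cre+ cells and by 2.18 and 2.28 in Cre- cells. Ppard, which encodes a fatty acid receptor, rose by 0.64 in Cre+ cells (SE 0.15, limma adjusted p = 0.0106), and Thra, a thyroid hormone receptor gene, fell by 1.23 (SE 0.38, 0.0417), a call lost in 10 alternatives. Pparg passed at -0.33 in Cre- cells (SE 0.10, limma adjusted p = 0.0372), a call lost in 10 alternatives. Of 9 coregulators the same 3 passed in both genotypes, all downward. These were 33.3% of the list, against 20.7% of all genes in Cre+ and 18.5% in Cre- cells. Nrip1 fell by 0.74 and 0.62, Ep300 by 0.71 and 0.61 and Tbl1xr1 by 0.41 and 0.44 in Cre+ and Cre- cells. The Nrip1 call was lost in 2 alternatives in Cre+ and 13 in Cre- cells, the Ep300 call in 4 and 12, and the Tbl1xr1 call in 4 and 4.

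**Figure D4:**
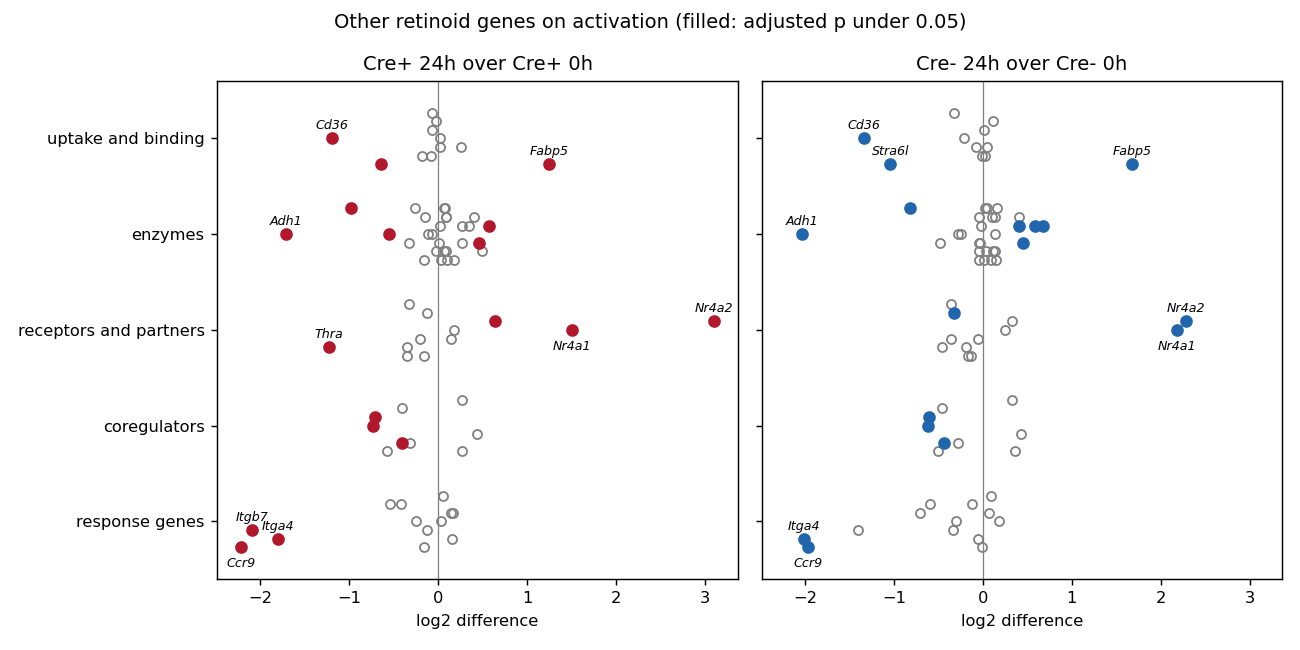
Log2 differences on activation (x axes) of 73 other retinoid genes by list (rows, points spread vertically for legibility) in Cre+ and Cre- cells. Filled points passed at an adjusted p under 0.05. Nr4a1, Nr4a2 and Fabp5 rose and Adh1, Ccr9 and Itga4 fell in both genotypes.

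Of 13 measured genes known to respond to retinoic acid, 0 rose and 3 fell in Cre+ cells, and 0 rose and 2 fell in Cre- cells. Of all genes, 10.1% rose and 10.6% fell in Cre+ cells, and 9.39% rose and 9.10% fell in Cre- cells. Ccr9, a chemokine receptor for homing to the small intestine, read 4.43, 4.33 and 5.05 in activated Cre+ cells, against 6.31, 6.53 and 7.62 in resting Cre+ cells, a fall of 2.22 (SE 0.30, limma adjusted p = 4.28e-04). It read 4.40, 4.60 and 4.59 in activated Cre- cells, against 6.21, 6.49 and 6.80 in resting Cre- cells, a fall of 1.97 (SE 0.30, limma adjusted p = 0.00103). In both genotypes all activated arrays lay below all resting arrays.

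Itga4 and Itgb7 encode the chains of a gut-homing integrin. Itga4 fell by 1.80 in Cre+ and 2.01 in Cre- cells. Itgb7 fell by 2.10 in Cre+ cells (SE 0.47, limma adjusted p = 0.00797). In Cre- cells it differed by -1.40 and did not pass (SE 0.47, limma adjusted p = 0.0587). Foxp3, the factor of regulatory T cells, averaged 9.11 ± 0.69 and 8.88 ± 0.65 in activated Cre+ and Cre- cells and 9.66 ± 0.08 and 9.49 ± 0.03 at rest, and Hic1 read 3.04 to 3.40 over all arrays. Neither passed. Markers of B, myeloid and dendritic cells were lower on the activated arrays over the same groups, by medians of 1.51, 1.38 and 1.46 in Cre+ cells and of 2.47, 1.63 and 1.76 in Cre- cells. The part of other cell types in the falls of these and the other genes was not tested.

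Genes most alike in pattern were sought by Pearson's r over the 12 arrays, for the 6 members whose group means spanned at least 1. These arrays fall into 4 groups, so r reflects both the group means and the spread of arrays within groups. Stra6 was most like Hbegf (r = 0.983), Smpdl3b (0.975) and Cd80 (0.970). Crabp2 was most like Il2 (0.978), Otud7b (0.978) and Plk2 (0.977). Rara was most like Ostm1 (0.993), Flt3l (0.989) and Mindy2 (0.986), and Rarg most like Slc25a35 (0.987), Tgfbr2 (0.986) and Abr (0.985). Rxra was most like Serpinb6b (0.984), Gphn (0.974) and Kdm2b (0.968), and Dhrs3 most like Samhd1 (0.960), Rhbdd1 and Dnah17 (0.946 each). For deviations from the group means, r with the same genes was 0.75 to 0.94 for Stra6 and 0.65 to 0.86 for Crabp2. It was 0.95 to 0.97 for Rara, 0.97 to 0.99 for Rarg and 0.94 to 0.97 for Dhrs3. For Rxra it was 0.27, -0.25 and 0.73 with Serpinb6b, Gphn and Kdm2b.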

How the data were processed

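RNA was measured on whole-transcript microarrays. The authors deposited log2 values from RMA, and the submitters' processing notes name affy 1.36.1 and R 2.15.1. The chip definition file and genome build were not given in the sources used here. The table held 25206 probe sets for 12 arrays, and 23185 had 1 gene symbol and were tested. The other 2021 had none listed. Values ran from 0.542 to 13.2. The number of arrays limits the precision.

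A limma 3.58.1 fit (R 4.3.3) estimated the 4 group means from all 12 arrays without a covariate (degrees of freedom: 8 residual, 3.55 prior). It was tested on simulated data. The members, gene lists, tests and alternatives were chosen with earlier results of these data known. All 9 members were named at any value, with up to 4 passing genes per further list and comparison and a few set genes, among them Rarb, Ccr9 and Foxp3. Alternatives were array weights, a robust fit with a variance trend, the replicate number as a block, a mean of at least 5, all probe sets, median centring, quantile normalization, only the arrays compared, sex as a covariate (from Y-linked signal), and arrays left out. Promoter windows came from RefSeq (GRCm38.p6), where 7 of 9 members matched. Motifs were sought by exact match in Python.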

Additional observations from a re-analysis of the deposited data

How the results depend on the processing

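The number of arrays and the wider spread of the activated ones limit these results. Between resting Cre+ and Cre- cells 1 of the 9 genes passed, 0 with the replicate block or with sex as a covariate, 2 with only the arrays compared, and 0 to 1 with an array left out. Between activated Cre+ and Cre- cells 1 passed, 4 with array weights, 0 with only the arrays compared, 2 without both activated arrays numbered 3, and 1 to 2 with an array left out. Activation called 6 genes in Cre+ cells (5 to 6 with an array left out) and 3 in Cre- cells (2 to 4). For the difference of responses 0 passed, 2 with array weights and 0 to 1 with an array left out. Over all genes, the counts of 128 and 169 in the resting and activated genotype comparisons became 321 and 2416 with array weights, 251 and 9 with only the arrays compared, 266 and 229 without both activated arrays numbered 3, and 85 and 112 with sex as a covariate. No difference of the 9 genes that passed turned its sign in the alternatives run. Among the tested differences that did not pass, signs turned for Stra6 on activation of Cre- cells (-0.06 to 0.74 with an array left out, and -0.06 without both arrays numbered 3), Rdh10 there (0.03 with median centring and -0.11 to 0.02 with an array left out), and at rest Crabp2 (-0.25 to 0.17), Aldh1a2 (-0.23 to 0.01) and Cyp26b1 (-0.24 to 0.01) with an array left out. Among the untested ones they turned between activated Cre+ and Cre- cells for Rarg, Dhrs3, Aldh1a2 and Cyp26b1 and in the difference of responses for Dhrs3 and Aldh1a2. Dhrs3, at -0.32 between activated groups, became 0.27 without activated Cre- array 1 and 0.24 without activated Cre+ array 3. The cause of these changes was not tested. Same-numbered arrays of different groups deviated together at correlations of -0.09 to 0.73, over 0.1 in 5 of 18 pairs, and 7 of 12 arrays correlated best with their own number. No pairing by number was stated. The Y-linked gene Uty read 7.54 and 2.43 on resting and activated Cre- arrays numbered 3, and 2.39 and 6.98 on Cre+ arrays numbered 1. These same-numbered arrays thus differed in sex, while the other numbers matched within each genotype. Y-linked signal was present on 2 activated Cre+, 1 activated Cre-, 1 resting Cre+ and 2 resting Cre- arrays.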
